A study of Caenorhabditis elegans with 30 samples.

Results

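The fatty acid desaturase genes fat-1 to fat-7 were followed in whole Caenorhabditis elegans of 6 genotypes. The 7 genes were taken by name from the 20484 genes of the deposited tables, by a rule that uses no measured value, although this set of genes was picked for description with earlier results of these data known. Each genotype was represented by 5 samples labelled as replicates, 30 in all, of synchronised worms collected late in the last larval stage (L4) after growth on OP50 bacteria at 20 °C. The alleles were e1370 for daf-2, qm200 for nuo-6, tm2066 for his-72 and ok2289 for his-71. his-71 and his-72 encode the broadly expressed forms of histone H3.3, the H3 that enters chromatin outside DNA replication, and worms that carry both his alleles (his-72;his-71 in the plots) are called H3.3 mutants here. The 6 genotypes were H3.3-mutant daf-2, daf-2, H3.3-mutant nuo-6, nuo-6, the H3.3 mutant with no other mutation, and wild type (WT). The daf-2 mutation lowers insulin receptor signalling, the nuo-6 mutation alters a subunit of respiratory chain complex I, and both make worms long-lived. Other H3.3 genes remain in these worms, so "without H3.3" refers here to these named genes alone.

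Desaturases are membrane enzymes that place double bonds into fatty acid chains, using electrons delivered by cytochrome b5. The worm makes its polyunsaturated fatty acids itself, mostly in the intestine, from saturated chains taken from bacteria or made anew. FAT-5, FAT-6 and FAT-7 put in the first double bond: FAT-5 acts on palmitic acid, and FAT-6 and FAT-7 act on stearic acid to give oleic acid. FAT-2 then turns oleic into linoleic acid, FAT-1 adds the bond nearest the methyl end, FAT-3 forms gamma-linolenic acid from linoleic acid, and FAT-4 forms arachidonic and eicosapentaenoic acid after chain elongation. These lipids set membrane fluidity, enter fat stores and yolk, and are the source of eicosanoid signals.

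Levels are given in FPKM, fragments counted for a gene after scaling to transcript length and sequencing depth, so that genes can be compared per length. There is 1 value per gene and genotype, made by the authors from the 5 samples, and it is called a pool here. No spread between replicates was given, so no test, interval or p-value stands behind any difference, and the depth is unknown. A gene is called higher or lower below when 2 pools differed by 2-fold or more and the larger value was 5 FPKM or more, which is a limit of size and not a test. The pools summed to between 935102 and 1508331 FPKM. The deleted genes followed the labels: his-71 had between 0.276 and 0.372 FPKM in the 3 pools that lack it, against 223 to 344 FPKM in the pools that carry it, and his-72 had between 0.293 and 0.408 FPKM, against 226 to 418 FPKM. daf-2 and nuo-6 transcripts were present in every pool, so their levels do not check those labels. All 16 intestine markers were above 0 in every pool. In whole worms, fewer cells of a type and less RNA per cell cannot be told apart.

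Of the genes, 5 lie on chromosome IV and the other 2 on chromosome V, by the WBcel235 annotation matched on gene ID. On chromosome IV, fat-4 (WBGene00001396, 9799429 to 9802226) precedes fat-3 (WBGene00001395, 9803023 to 9806119) on the same strand, with 796 bp and no protein-coding gene between them. fat-1 (WBGene00001393, 13315644 to 13318811) precedes fat-2 (WBGene00001394, 13323873 to 13326395) in the same way, with 5061 bp between. fat-6 (WBGene00001398) runs from 11913692 to 11915687 on the opposite strand of chromosome IV. On chromosome V, fat-7 (WBGene00001399) lies at 7151353 to 7153146 and fat-5 (WBGene00001397) at 17725004 to 17726818. The longest coding sequences give proteins of 333, 339 and 338 residues for fat-5, fat-6 and fat-7 and of 376, 402, 443 and 447 residues for fat-2, fat-1, fat-3 and fat-4. FAT-3 and FAT-4 carry a cytochrome b5 domain of their own. The files' anatomy terms name the intestine for 7 of 7 genes, and for fat-7 they name no other tissue.

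Among the first-step genes, fat-5 was high where the daf-2 mutation was present and fat-7 was low where either the daf-2 or the nuo-6 mutation was present. fat-5 had 69.1 FPKM in H3.3-mutant daf-2, 134 in daf-2, 14.5 in H3.3-mutant nuo-6, 9.45 in nuo-6, 7.08 in the H3.3 mutant and 8.97 in WT. Its level was thus far above the others in the 2 pools that carry the daf-2 mutation. fat-7 had 11.2 FPKM in H3.3-mutant daf-2, 10.2 in daf-2, 9.54 in H3.3-mutant nuo-6, 7.44 in nuo-6, 64.8 in the H3.3 mutant and 97.8 in WT. The 4 pools with the daf-2 or nuo-6 mutation lay together at 7.44 to 11.2 FPKM, and the 2 pools with neither lay well above them. fat-6 had 547 FPKM in H3.3-mutant daf-2, 1135 in daf-2, 698 in H3.3-mutant nuo-6, 585 in nuo-6, 456 in the H3.3 mutant and 675 in WT. Its highest and lowest pools differed 2.49-fold, against 18.97-fold for fat-5 and 13.1-fold for fat-7.

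**Figure D1:**
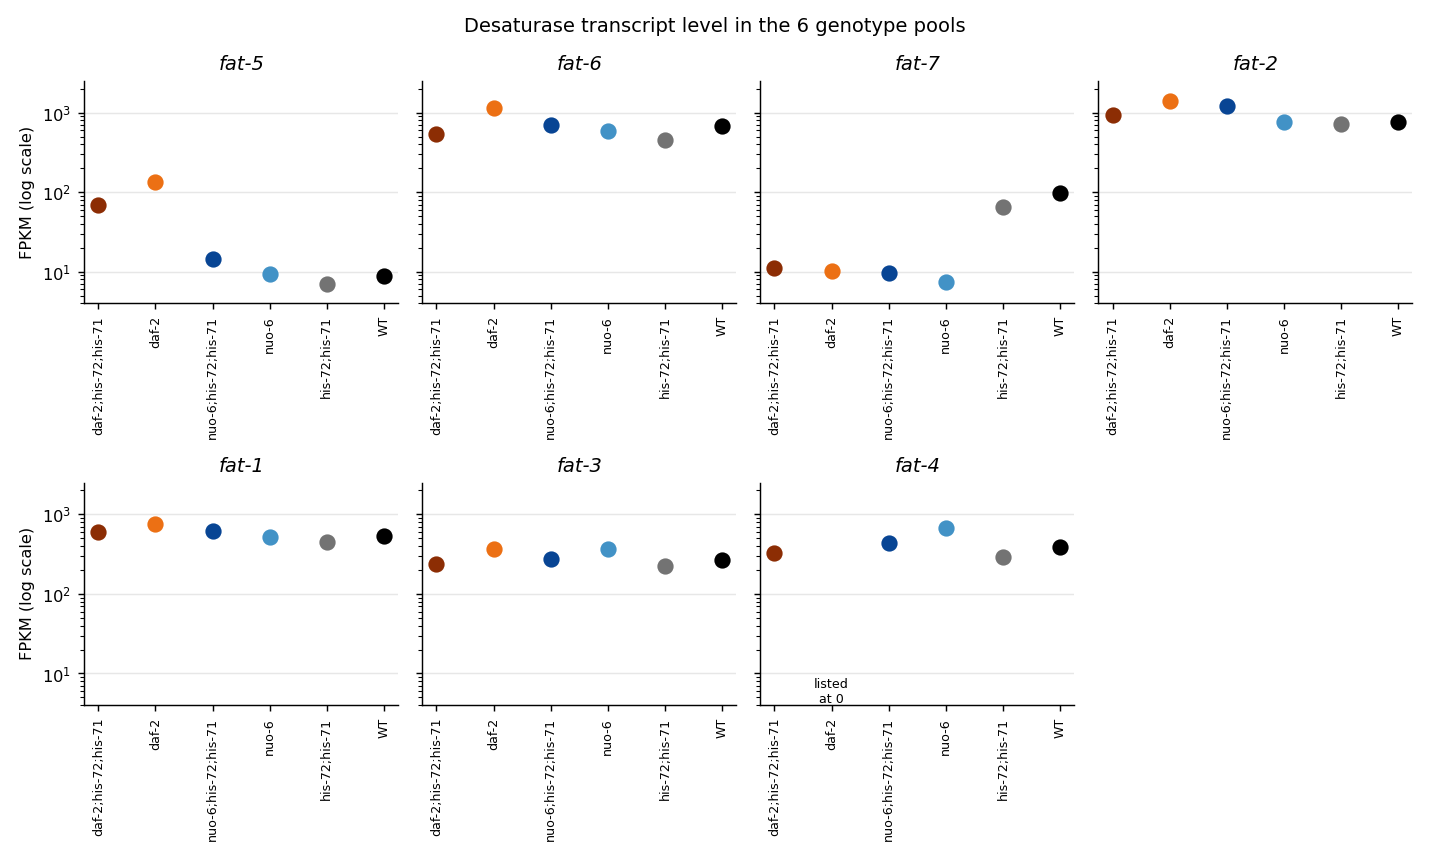
Each panel plots the FPKM (log scale) of 1 desaturase gene in the 6 genotype pools, 1 point per pool and no error bars because each pool has 1 deposited value. fat-5 reaches 69.1 and 134 FPKM in the pools with the daf-2 mutation, fat-7 stays at 7.44 to 11.2 FPKM in the 4 pools with the daf-2 or nuo-6 mutation, and fat-4 is listed at 0 in daf-2.

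The genes of the later steps varied less. fat-2 had 925 FPKM in H3.3-mutant daf-2, 1420.0 in daf-2, 1209.6 in H3.3-mutant nuo-6, 769.8 in nuo-6, 712 in the H3.3 mutant and 762 in WT, and was the most abundant member in every pool. fat-1 had 593 FPKM in H3.3-mutant daf-2, 758 in daf-2, 617 in H3.3-mutant nuo-6, 514 in nuo-6, 446 in the H3.3 mutant and 538 in WT. fat-3 had 236 FPKM in H3.3-mutant daf-2, 369.5 in daf-2, 276 in H3.3-mutant nuo-6, 368 in nuo-6, 226 in the H3.3 mutant and 267 in WT. The highest pool exceeded the lowest 1.99-fold for fat-2, 1.70-fold for fat-1 and 1.64-fold for fat-3. fat-4 had 323 FPKM in H3.3-mutant daf-2, 433 in H3.3-mutant nuo-6, 673 in nuo-6, 293 in the H3.3 mutant and 389.7 in WT, a 2.29-fold range over 5 pools. It was listed at exactly 0 in daf-2, where its neighbour fat-3 had 369.5 FPKM. An exact 0 in these tables can be a failed estimate, since the ribosomal protein gene rps-3 is listed at 0 in H3.3-mutant nuo-6 and had at least 2388 FPKM in each other pool. fat-4, rps-3 and C23G10.2 are the 3 genes listed at 0 in exactly 1 pool with at least 100 FPKM in the other 5, and fat-4 was treated as not quantified in daf-2.

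The order of the members by level differed between genotypes below fat-2, which came first in every pool. In WT the order ran fat-2, fat-6, fat-1, fat-4, fat-3, fat-7 and fat-5, and fat-2 stood at rank 248 of all genes. Neighbours at the top were close, fat-2 at 1.13 times fat-6 and fat-6 at 1.25 times fat-1, and without replicates these neighbours cannot be separated. The wide gaps were at the bottom, where fat-3 stood 2.73-fold above fat-7 and fat-7 10.9-fold above fat-5. In daf-2 the last 2 places were exchanged: fat-5 came 13.2-fold above fat-7. fat-5 ranked 1256 among all genes in daf-2 and 8787 in WT, whereas fat-7 ranked 8306 in daf-2 and 1534 in WT. In nuo-6 fat-7 was last at rank 10002, with fat-5 1.27-fold above it. Near the top, fat-4 came next after fat-2 in nuo-6 at 673 FPKM, above fat-6 at 585 and fat-1 at 514 FPKM. In H3.3-mutant daf-2, fat-1 stood 1.09-fold above fat-6. Neighbours this close cannot be separated without replicates either.

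Most of the summed transcript level of the first-step genes was that of fat-6 in every pool. Enzyme levels and activity were not measured. fat-5, fat-6 and fat-7 together came to 627 FPKM in H3.3-mutant daf-2, 1279 in daf-2, 722 in H3.3-mutant nuo-6, 602 in nuo-6, 528 in the H3.3 mutant and 782 in WT. fat-6 made up between 86.3% and 97.2% of these sums. fat-7 made up 1.78% in H3.3-mutant daf-2, 0.794% in daf-2, 1.32% in H3.3-mutant nuo-6 and 1.24% in nuo-6, against 12.3% in the H3.3 mutant and 12.5% in WT. fat-5 made up 11.02% in H3.3-mutant daf-2 and 10.5% in daf-2, and between 1.15% and 2.01% in the other 4 pools. The largest share after fat-6 was thus that of fat-5 in the daf-2 pools and of fat-7 in WT and the H3.3 mutant. In the nuo-6 pools both shares were small. The fat-6 level was 112 times that of fat-7 in daf-2, 78.7 times in nuo-6 and 6.90 times in WT. fat-6 and fat-7 are close paralogs, and how reads that match both were counted is not given in the sources used here.

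**Figure D2:**
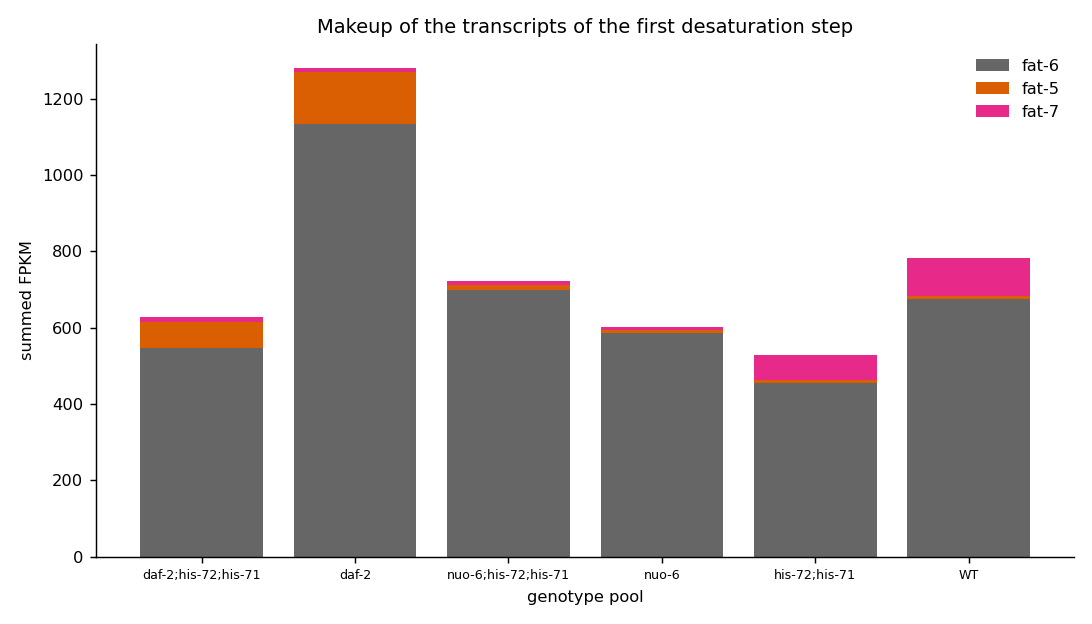
Stacked bars give the summed FPKM of fat-6, fat-5 and fat-7 in each genotype pool, starting at 0. fat-5 takes 10.5% to 11.02% of the bar in the daf-2 pools, and fat-7 takes 12.3% to 12.5% in the H3.3 mutant and WT.

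The effect of the insulin receptor mutation with H3.3 present was taken from daf-2 against WT. fat-5 was 14.98-fold higher (134 FPKM in daf-2, 8.97 in WT) and fat-7 was 9.63-fold lower (10.2 in daf-2, 97.8 in WT). The other 4 compared members had higher values in daf-2 without reaching 2-fold, at log2 ratios of 0.90 for fat-2, 0.75 for fat-6, 0.49 for fat-1 and 0.47 for fat-3. So 1 of 6 compared members was higher and 1 lower, where 15.1% of 11405 compared genes were higher and 13.2% lower. These counts are near the background, and the size of the single ratios is what stood out. With the gene itself counted, 143 of the 11405 genes had a ratio as high as that of fat-5, and 323 had one as low as that of fat-7. The median log2 ratio was 0.62 over the 6 members and 0.01 over all compared genes.

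Without H3.3 the same mutation was read from H3.3-mutant daf-2 against the H3.3 mutant. fat-5 was again the one higher member, 9.76-fold (69.1 FPKM in H3.3-mutant daf-2, 7.08 in the H3.3 mutant), and fat-7 the one lower member, 5.79-fold (11.2 and 64.8 FPKM). That is 1 of 7 in each direction, where 13.2% of 11871 genes were higher and 13.5% lower. A ratio as high as that of fat-5 was found for 558 of these genes, itself included. One as low as that of fat-7 was found for 152, counted in the same way. The other 5 members had log2 ratios between 0.07 for fat-3 and 0.41 for fat-1. These small ratios were above those of most abundant transcripts, since genes averaging at least 100 FPKM over the pools had a median log2 ratio of -0.51 in this comparison. When the pools were scaled to the same intestine marker median, fat-1, fat-2 and fat-6 also passed 2-fold, at log2 ratios of 1.21, 1.18 and 1.06. That scaling moved the median log2 ratio of all genes by 0.84, and 38.3% of all genes were then called higher.

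The nuo-6 mutation with H3.3 present left 6 of 7 members within 2-fold of WT. fat-7 was 13.1-fold lower (7.44 FPKM in nuo-6, 97.8 in WT), and 28 of 11716 compared genes, itself included, had a ratio this low. So 1 of 7 members was lower and 0 higher, where 5.47% of genes were lower and 20.6% higher. fat-5 was nearly level, at 9.45 FPKM in nuo-6 and 8.97 in WT. The largest other values were those of the neighbours fat-4, at a log2 ratio of 0.79, and fat-3, at 0.46. fat-2, fat-1 and fat-6 had log2 ratios of 0.01, -0.07 and -0.21, and the signs for fat-2 and fat-5 turned under other scalings.

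In H3.3-mutant nuo-6 against the H3.3 mutant, fat-7 was 6.79-fold lower (9.54 FPKM in H3.3-mutant nuo-6, 64.8 in the H3.3 mutant), a ratio reached by 25 of 11374 genes with fat-7 counted. fat-5 was 2.05-fold higher (14.5 and 7.08 FPKM), just past the limit, and no longer passed it with a pseudocount of 1 FPKM, where its log2 ratio was 0.94. These are 1 of 7 members lower and 1 higher, where 6.73% of genes were lower and 5.76% higher. The other 5 members had higher values in H3.3-mutant nuo-6, at log2 ratios from 0.29 for fat-3 to 0.76 for fat-2. In both mutations, then, the low level of fat-7 was found with and without his-72 and his-71. The high level of fat-5 went with the daf-2 mutation.

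**Figure D3:**
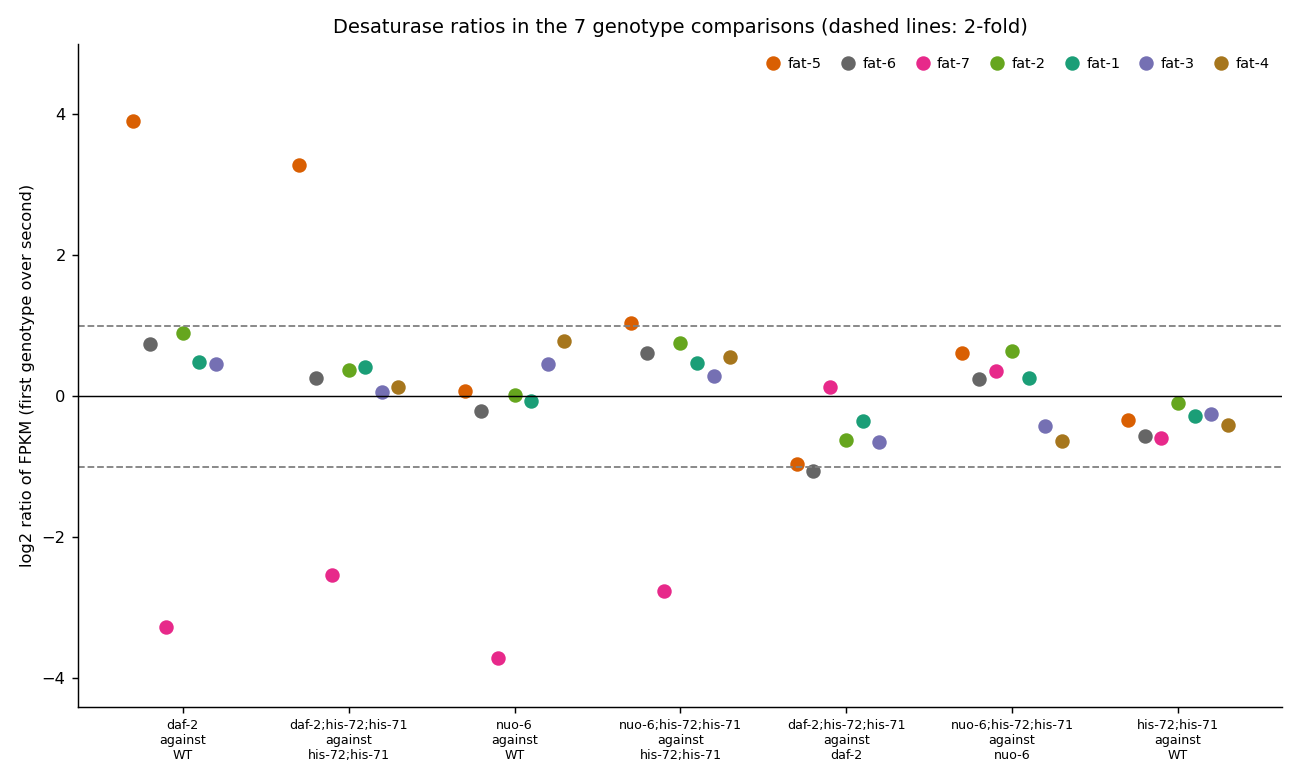
Points give the log2 ratio of FPKM, first genotype over second, for the 7 desaturase genes in 7 genotype comparisons, 1 point per gene, with dashed lines at 2-fold. fat-7 lies between -2.53 and -3.72 in the 4 comparisons that add the daf-2 or nuo-6 mutation, and fat-5 at 3.91 and 3.29 in the 2 that add the daf-2 mutation.

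H3.3 loss alone was examined in the H3.3 mutant against WT. No member reached 2-fold in either direction, where 1.14% of 10972 genes were higher and 0.902% lower. All 7 members nevertheless had lower values in the H3.3 mutant, at log2 ratios between -0.10 for fat-2 and -0.59 for fat-7. fat-6 had 456 FPKM in the H3.3 mutant and 675 in WT, a 1.48-fold difference, and fat-4 had one of 1.33-fold. Values below WT were found for 36.6% of all compared genes and for 66.5% of those averaging at least 100 FPKM. The median log2 ratio of the members was -0.34, beside 0.07 for all compared genes and -0.08 for the abundant ones. The direction was the same for each member under all 3 other scalings of the pools. Whether differences of this size exceed the spread between replicates cannot be said from 1 value per genotype.

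Among daf-2 worms, H3.3 loss (H3.3-mutant daf-2 against daf-2) left 5 of 6 compared members with lower values. fat-6 was 2.08-fold lower (547 FPKM in H3.3-mutant daf-2, 1135 in daf-2) and fat-5 was just short of the limit, 1.94-fold lower (69.1 and 134 FPKM). fat-3, fat-2 and fat-1 had log2 ratios of -0.64, -0.62 and -0.35, and fat-7 was nearly level at 0.14. So 1 of 6 members was lower and 0 higher, where 12.3% of 11663 genes were lower and 17.1% higher. Abundant transcripts as a class had lower values in H3.3-mutant daf-2: the median log2 ratio of genes averaging at least 100 FPKM was -0.61, and 20.3% of them were at least 2-fold lower. fat-6 no longer passed 2-fold under any of the 3 other scalings, with log2 ratios between -0.94 and -0.31, and fat-1 changed sign when values were rescaled to TPM (transcript shares of a fixed total). All of fat-1, fat-2 and fat-3 changed sign when pools were scaled to the intestine markers.

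In the nuo-6 background, H3.3-mutant nuo-6 against nuo-6, 0 of 7 members passed the limit, where 6.92% of 11900 genes were higher and 16.9% lower. fat-2 had 1209.6 FPKM in H3.3-mutant nuo-6 and 769.8 in nuo-6, a log2 ratio of 0.65, and fat-5 had one of 0.62. fat-4 had 433 FPKM in H3.3-mutant nuo-6 and 673 in nuo-6, a log2 ratio of -0.64, and its neighbour fat-3 one of -0.42. The other 3 members had log2 ratios of 0.36 for fat-7, 0.26 for fat-1 and 0.25 for fat-6. H3.3 loss thus had the desaturases on both sides of 1 in this background. Rescaling to TPM carried fat-2 just past 2-fold, at 1.01.

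The effects of each mutation with and without H3.3 were set against each other gene by gene, as the log2 ratio without H3.3 less that with it. For the daf-2 mutation, the difference was 0.73 for fat-7, -0.62 for fat-5, -0.52 for fat-2, -0.49 for fat-6, -0.40 for fat-3 and -0.08 for fat-1. The ratios of fat-7 and fat-5 were thus nearer to 1 without H3.3, by 1.66-fold and 1.54-fold. No compared member reached a 2-fold difference, where 32.8% of 12241 genes did. fat-7 passed it when values were rescaled to TPM, at a difference of 1.12, and with intestine scaling, at 1.54, and the signs for the other 5 members turned with intestine scaling. For the nuo-6 mutation, the difference was 0.96 for fat-5, 0.95 for fat-7, 0.82 for fat-6, 0.75 for fat-2, 0.54 for fat-1, -0.17 for fat-3 and -0.23 for fat-4. None of the 7 reached 2-fold, where 26.5% of 12104 genes did, but fat-5 and fat-7 came near it at 1.95-fold and 1.94-fold. With pools scaled to equal median ratios 2 of the 7 passed it, and with either of the other scalings 4 did, where between 25.3% and 26.2% of all genes passed it under these settings, and the signs for fat-3 and fat-4 turned with rescaling to TPM and with intestine scaling.

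**Figure D4:**
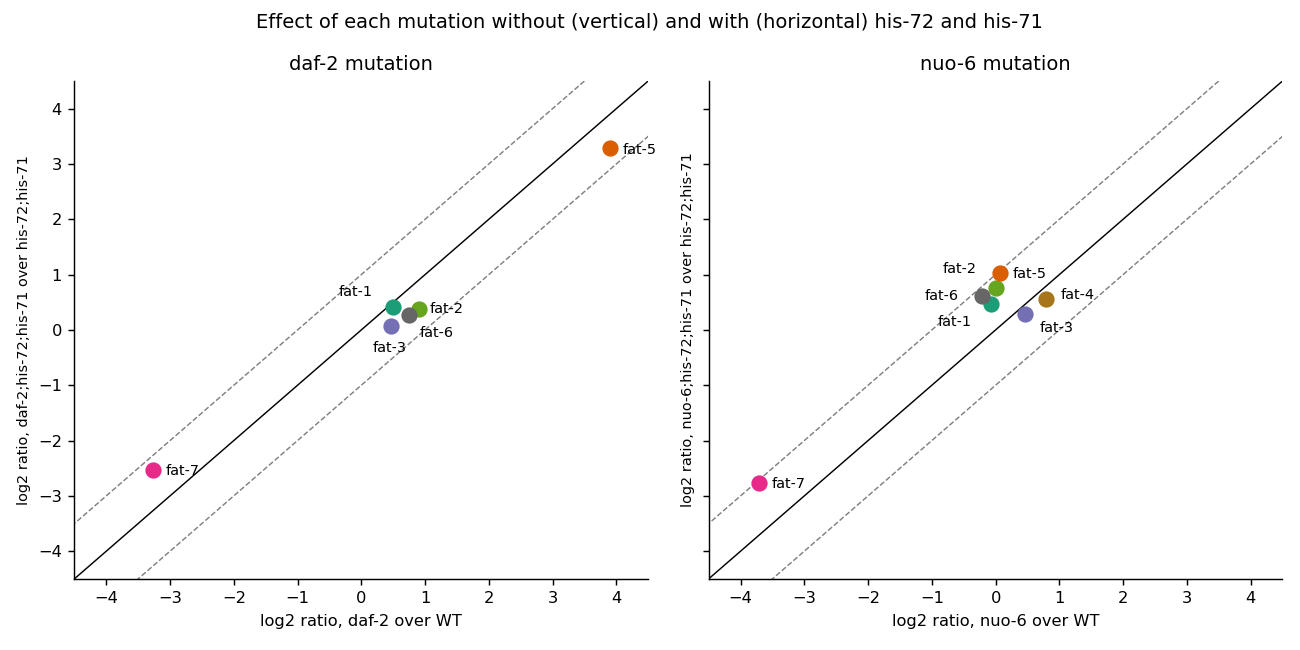
Each point is a desaturase gene, placed by its log2 ratio for the mutation without his-72 and his-71 (vertical) and with them (horizontal), for daf-2 on the left and nuo-6 on the right, with the line of equal effects and dashed lines at a 2-fold difference. All points lie within the dashed lines, fat-7 low in both panels and fat-5 high in the daf-2 panel, and fat-4 is missing for daf-2.

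Genes around the desaturases in the pathway were read from lists that had been set up by function. The list counts here and below hold for the values as deposited, and counts under other scalings are not given. Of the elongases and their partner enzymes, which lengthen the chains between desaturation steps, 3 of 11 compared were higher and 1 lower in daf-2 against WT, where 15.1% of all genes were higher and 13.2% lower. elo-6 and elo-5, needed for branched-chain fatty acids, were 3.65-fold and 2.87-fold higher, with 2654 and 1019 FPKM in daf-2 and 728 and 355 in WT. In H3.3-mutant daf-2 against the H3.3 mutant, 5 of 12 were lower and 0 higher, where 13.5% of all genes were lower and 13.2% higher. Of genes averaging at least 100 FPKM, 18.7% were lower there. Rescaling to TPM moved the median log2 ratio of all genes by 0.42 in this comparison, and intestine scaling by 0.84. elo-7 was lower in daf-2 against WT, at 0.0473 FPKM in daf-2 and 7.14 in WT. In H3.3-mutant daf-2 against daf-2, 7 of 10 were lower and 0 higher, with a list median log2 ratio of -1.48 beside -0.15 for all genes. The share of genes called lower there was 12.3% over all genes and 20.3% over those averaging at least 100 FPKM, which had a median of -0.61. The median of all genes moved there by 0.51 with rescaling to TPM and by 0.80 with intestine scaling. elo-5 was 6.32-fold lower there (161 FPKM in H3.3-mutant daf-2, 1019 in daf-2), elo-6 4.09-fold and elo-2 3.75-fold. The desaturase median in the same comparison was -0.63. In the 2 comparisons of the nuo-6 mutation, 1 of 12 was higher and 0 lower with H3.3 (elo-8, 23.6 FPKM in nuo-6 and 3.10 in WT), and 2 of 12 were lower and 0 higher without it (elo-7 and elo-8). Of all genes, 20.6% were higher and 5.47% lower with H3.3, and 5.76% higher and 6.73% lower without it, so these counts are near the background.

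Of 14 regulators of the desaturases, sbp-1, the SREBP factor that drives lipid synthesis genes, was the one higher gene in daf-2 against WT (21.5 FPKM in daf-2, 9.52 in WT) and the one lower gene in H3.3-mutant daf-2 against daf-2 (8.89 and 21.5 FPKM). No regulator passed 2-fold in the other 5 comparisons. The share of all genes called was 15.1% higher in daf-2 against WT and 12.3% lower in H3.3-mutant daf-2 against daf-2, and with 14 genes nothing is read from these counts. The list includes nhr-49 and nhr-80, nuclear receptors that promote desaturase expression, and mdt-15, their mediator partner. nhr-49 had 80.2, 90.6, 61.7, 55.3, 66.4 and 66.5 FPKM in H3.3-mutant daf-2, daf-2, H3.3-mutant nuo-6, nuo-6, the H3.3 mutant and WT. nhr-80 had 10.1, 16.3, 15.7, 19.5, 15.98 and 14.8 FPKM and mdt-15 had 55.2, 81.7, 60.2, 47.6, 56.4 and 55.6 FPKM in the same order. Only transcript levels were read, and a part of these 3 genes in the fat-7 values was not tested.

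Of the 3 compared genes of electron supply, cytb-5.1, a cytochrome b5, was lower in H3.3-mutant daf-2 against daf-2 (234 and 582 FPKM), where 12.3% of all genes were lower, and none passed the limit in the other 6 comparisons. Of 4 compared genes listed with saturated chain synthesis, the one past the limit was mlcd-1, a malonyl-CoA decarboxylase and not a chain-building enzyme. It was 2.40-fold higher in daf-2 against WT and 2.11-fold higher in H3.3-mutant daf-2 against the H3.3 mutant. Of all genes, 15.1% and 13.2% were higher in these comparisons. pod-2 and fasn-1, the acetyl-CoA carboxylase and the fatty acid synthase, passed the limit in none of the 7 comparisons. Among 9 compared genes of phosphatidylcholine synthesis, 4 were lower in daf-2 against WT and 5 in H3.3-mutant daf-2 against the H3.3 mutant, with 0 higher in both. Both counts include cept-1, which is listed at a locus shared with 12 other genes. The shares of all genes called lower were 13.2% and 13.5%, and those called higher 15.1% and 13.2%. sams-1, which makes the methyl donor, had 93.2 FPKM in H3.3-mutant daf-2, 268 in daf-2, 594 in the H3.3 mutant and 589.9 in WT. pmt-2, a phosphoethanolamine methyltransferase, had 135, 446, 844 and 915 FPKM in these pools.

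Downstream of the desaturases, genes of fat storage and lipolysis were higher in 7 of 11 cases in daf-2 against WT, where 15.1% of all genes were higher, and in 5 of 11 in H3.3-mutant daf-2 against the H3.3 mutant, where 13.2% were, with 0 lower in both. The lysosomal lipase genes lipl-1 and lipl-2 had 83.5 and 40.8 FPKM in daf-2 and 1.34 and 1.64 in WT. The lipid droplet gene plin-1, which the tables list under its older name mdt-28, was 2.88-fold and 2.90-fold higher in the 2 comparisons. In H3.3-mutant daf-2 against daf-2, 4 of 11 storage and lipolysis genes were lower and 0 higher, where 12.3% and 17.1% of all genes were. In nuo-6 against WT 3 of 9 were higher and 0 lower, where 20.6% and 5.47% of all genes were. In H3.3-mutant nuo-6 against nuo-6, 3 of 9 were lower and 0 higher, where 16.9% and 6.92% of all genes were. Of genes listed with the oxygenation of polyunsaturated fatty acids and hydrolysis of the epoxides, 5 of 6 were higher in daf-2 against WT (cyp-33E2 3.25-fold, cyp-33E1 2.86-fold), where 15.1% of all genes were. In H3.3-mutant daf-2 against the H3.3 mutant 0 of 6 were higher, which is near the 13.2% of all genes, and the difference between these counts was not tested. In the nuo-6 comparisons 3 of 6 were higher with H3.3 (cyp-13A12 4.17-fold), where 20.6% of all genes were, and 3 of 6 without it (cyp-13A12 3.52-fold), where 5.76% were. The 3 without H3.3 include emb-8, which was just past the limit at 2.02-fold. These lists hold few genes and were read only by the size of the ratio.

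Tissue and stage markers differed strongly between the pools. They are given because the desaturases, measured here in whole worms, are annotated to the intestine, all but fat-7 to other tissues as well. The 6 yolk genes, made in the adult intestine, summed to 6259 FPKM in H3.3-mutant daf-2, 5.01 in daf-2, 5.78 in H3.3-mutant nuo-6, 1513 in nuo-6, 20.6 in the H3.3 mutant and 47.1 in WT. The 12 oocyte markers summed to 3199, 26.7, 63.6, 542, 118 and 103.6 FPKM, and the 13 germline markers to 647, 99.97, 256, 598, 564 and 482 FPKM, in the same order. fat-7 was low in pools with high yolk sums (H3.3-mutant daf-2 and nuo-6) and in pools with low ones (daf-2 and H3.3-mutant nuo-6). The pools with higher fat-7, the H3.3 mutant and WT, had yolk sums between these, at 20.6 and 47.1 FPKM. fat-5 was high in H3.3-mutant daf-2 and in daf-2, the pools with the highest and the lowest yolk sum, and low in the pools between. The 16 intestine markers summed to 3378 FPKM in H3.3-mutant daf-2, 8464 in daf-2, 8281 in H3.3-mutant nuo-6, 12488 in nuo-6, 8963 in the H3.3 mutant and 10611 in WT. The 12 hypodermis markers summed to 1239, 1884, 2919.7, 1901, 3262 and 3824 FPKM in these pools. The intestine sum is weighted to a few abundant genes, such as asp-1 at 4396 FPKM in WT. In nuo-6, lbp-6 had 3808 FPKM and mtl-2 1362, against 1689 and 56.3 in WT. The list median log2 ratio there was -0.01, with 3 of 16 markers higher and 1 lower, where 20.6% and 5.47% of all genes were. In daf-2 against WT 3 were higher and 3 lower, where 15.1% and 13.2% of all genes were. In H3.3-mutant daf-2 against the H3.3 mutant 0 were higher and 11 lower, where 13.2% and 13.5% of all genes were. Against daf-2, 0 were higher and 8 lower in H3.3-mutant daf-2, where 17.1% and 12.3% of all genes were. Among genes averaging at least 100 FPKM, 18.7% and 20.3% were lower in these last comparisons. With pools scaled to the intestine marker median, the log2 ratio of fat-7 was -3.28 in daf-2 against WT, -1.73 in H3.3-mutant daf-2 against the H3.3 mutant, -3.96 in nuo-6 against WT and -2.73 in H3.3-mutant nuo-6 against the H3.3 mutant. The part of developmental stage in the desaturase values was not tested.

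**Figure D5:**
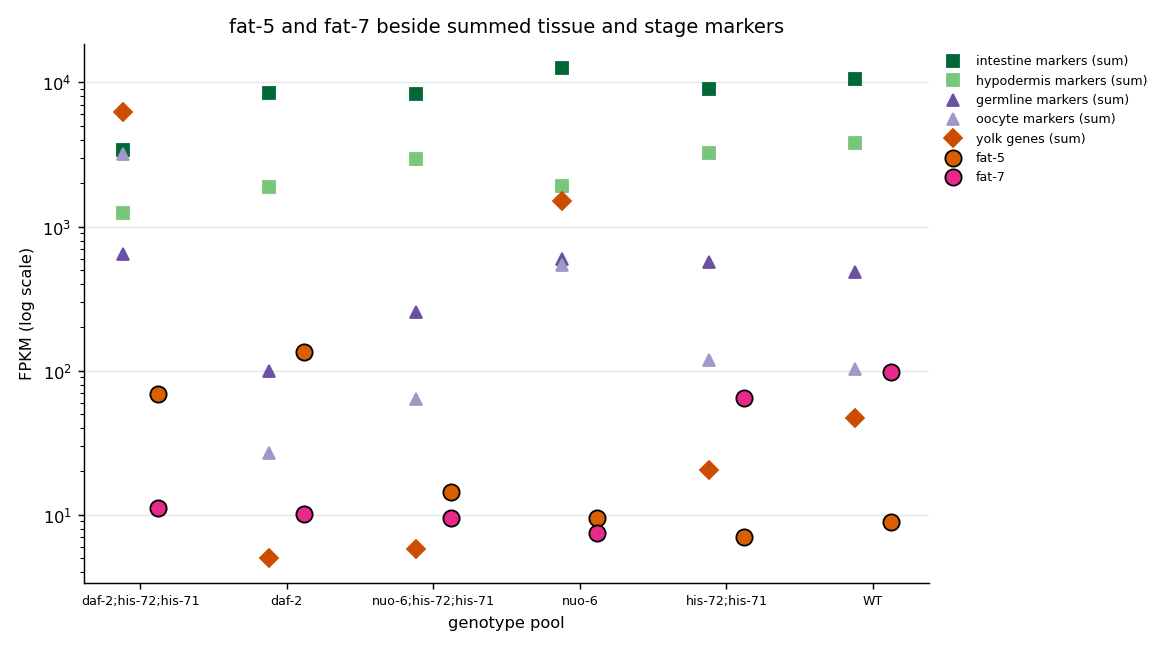
Points give, on a log scale, the summed FPKM of 5 marker lists and the FPKM of fat-5 and fat-7 in each genotype pool. The yolk sum ranges from 5.01 FPKM in daf-2 to 6259 in H3.3-mutant daf-2, with fat-7 at 10.2 and 11.2 FPKM in these pools. WT, where fat-7 is at 97.8 FPKM, has a yolk sum between these, at 47.1 FPKM.

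The profiles of the members over the pools were compared as the root mean square difference of log2 FPKM, each gene centred on its own mean, among 12835 genes above 0 in all 6 pools with at least 5 FPKM in 1 or more. fat-1, fat-2 and fat-6 lay near each other, at differences of 0.17 for fat-1 and fat-2, 0.22 for fat-1 and fat-6 and 0.23 for fat-2 and fat-6. Over the 5 pools in which fat-4 is quantified, its neighbour fat-3 lay 0.17 from it, rank 63 among all genes. fat-5 and fat-7 were far from these and from each other, at 2.69. The 3 nearest genes were skr-19, psd-1 and ztf-22 for fat-1, lact-3, glb-18 and flp-9 for fat-2, and Y42G9A.1, T10E9.8 and T28F2.2 for fat-3, all within 0.09. For fat-6 they were mmcm-1, F26A3.4 and odr-10, within 0.12, and for fat-4, over 5 pools, T10B11.6, fipr-8 and nhr-106, within 0.08. Many genes have profiles as flat as these, and fat-2 came only at rank 172 by nearness to fat-1.

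The profile of fat-5 was closely followed by 1 gene. K02C4.2 lay 0.20 from it, with 32.6 FPKM in H3.3-mutant daf-2, 89.9 in daf-2, 6.81 in H3.3-mutant nuo-6, 5.203 in nuo-6, 3.44 in the H3.3 mutant and 4.03 in WT. F22B7.9, described in the files as a predicted methyltransferase with intestinal reporter expression, and W09C2.7 came next at 0.30 and 0.32. No gene followed fat-7 as closely: the nearest, bah-1, lys-5 and cut-2, lay 0.69, 0.69 and 0.70 from it. cut-2, a cuticlin gene listed at a locus shared with another gene, had 179 FPKM in H3.3-mutant daf-2, 135 in daf-2, 385 in H3.3-mutant nuo-6, 159 in nuo-6, 836 in the H3.3 mutant and 845 in WT. Its lower values in the 4 pools with the daf-2 or nuo-6 mutation follow from its choice by likeness to fat-7. Likeness over so few pools is a description of these values.

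The tables list 3726 genes at a locus shared with other genes, which makes their values uncertain. Among these are fat-5 and fat-6 and, of the pathway genes given above, mlcd-1, sbp-1, cytb-5.1, elo-5, pod-2, cept-1 and emb-8. fat-5 shares its locus with twk-42, a potassium channel gene on the opposite strand, which had 4.15 FPKM in H3.3-mutant daf-2, 8.28 in daf-2, 7.38 in H3.3-mutant nuo-6, 6.77 in nuo-6, 9.15 in the H3.3 mutant and 8.55 in WT. twk-42 did not have the high daf-2 values of fat-5, but in WT both were at a like level, 8.97 FPKM for fat-5. fat-6 shares its locus with ZK822.9 and ZK822.10, whose highest value in any pool was 10.04 FPKM, against at least 456 FPKM for fat-6. Whether reads were counted by strand is not given in the sources used here.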

How the data were processed

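Messenger RNA of whole late L4 worms was sequenced from 6 genotypes, 5 samples each. The deposited FPKM values were computed by the authors; per the submitters' processing notes FastQC, STAR, Cufflinks and Cuffdiff were used, with versions, genome build and the combining of replicates not given in the sources used here. Each of 6 tables holds 1 FPKM value per gene and genotype, so n per value is 1 pool and the depth is unknown. Values were used as deposited in Python 3.11.15 with pandas 2.3.3. Ratios were taken without pseudocount, a gene at exactly 0 in a pool was left out of its ratios, and the limit was 2-fold with 5 FPKM or more in the larger value. The calculations were tested on simulated data. The 7 members and the gene lists were chosen with earlier results of these data known. Of all list entries 164 matched by the files' symbol, 1 by its current symbol, and 1 (T05H4.5) was not found. Named genes were the members, the 3 nearest profiles of each and up to 4 list members past the limit per list, chosen by size of ratio. The genes pod-2, fasn-1, nhr-49, nhr-80, mdt-15, C23G10.2, cept-1 and emb-8 were named after their values were seen. Some genes that the rule selects were left out for length. Alternatives were 3 other scalings of the pools, ratios of 1.5 and 3, minimums of 20 FPKM and none, a pseudocount of 1 FPKM, and keeping zeros with 0.1 FPKM added.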

Additional observations from a re-analysis of the deposited data

How the results depend on the processing

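No paired analysis was possible because each genotype has 1 deposited value, and leaving out replicates was not run for the same reason. fat-7 stayed at least 2-fold lower in all 4 comparisons that add the daf-2 or nuo-6 mutation, and fat-5 at least 2-fold higher in both that add the daf-2 mutation, under all 9 alternatives. For fat-7 the log2 ratios ran from -3.29 to -3.15 in daf-2 against WT and from -3.96 to -3.55 in nuo-6 against WT, and for fat-5 from 3.76 to 3.92 in daf-2 against WT.

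Counts below are of the compared members, and each is followed in brackets by the share of all genes called under the same setting. Lower members in H3.3-mutant daf-2 against daf-2 were 0 with equal median ratios (9.14%), after rescaling to TPM (3.34%), with intestine scaling (1.61%) and at a 3-fold limit (2.66%), and 4 at a 1.5-fold limit (30.3%). Higher members in H3.3-mutant nuo-6 against the H3.3 mutant were 0 at 3-fold (2.54%), at a minimum of 20 FPKM (5.19%) and after adding a pseudocount of 1 FPKM (5.12%), and 3 at 1.5-fold (12.5%). In H3.3-mutant daf-2 against the H3.3 mutant, 4 were higher with intestine scaling (38.3%). At 1.5-fold, 1 was lower in the H3.3 mutant against WT (2.36%), 3 were higher in daf-2 against WT (25.8%) and 1 was higher in nuo-6 against WT (31.5%). In H3.3-mutant nuo-6 against nuo-6, 2 were higher (15.6%) and 1 lower (26.6%) at 1.5-fold, and 1 was higher after rescaling to TPM (13.8%). With zeros kept, fat-4 added to the counts, giving 2 lower in daf-2 against WT (13.1%), 1 higher in H3.3-mutant daf-2 against daf-2 (17.1%) and 1 differing daf-2 effect (32.6%).

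Members whose daf-2 effect differed without H3.3 were 1 after rescaling to TPM (30.7%), 1 with intestine scaling (39.6%) and 2 at 1.5-fold (55.7%). For the nuo-6 effect they were 2 with equal median ratios (25.97%), 4 after rescaling to TPM (25.3%), 4 with intestine scaling (26.2%) and 4 at 1.5-fold (46.5%). Rescaling to TPM moved the median log2 ratio of all genes by 0.51 in H3.3-mutant daf-2 against daf-2.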
